A study of Mus musculus with 6 samples.

Results

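The unfolded protein response is the set of genes a cell uses when proteins in the endoplasmic reticulum (ER) are not folding fast enough. The account below covers 35 of its genes, found by name among the 34788 gene names on the arrays. They were chosen with earlier results of these data known, so their counts beside those of all genes are descriptions only. The 35 include 5 sensors and transcription factors and 15 chaperones and folding enzymes induced through the factors ATF6 and XBP1. The others are 3 genes of ER oxidation and translocation, 7 genes of ER-associated degradation, and 5 targets of the kinase PERK and its factor ATF4. Each gene is represented by its brightest probe. Of the 35, 8 have further probes, 12 in all.

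The genes were measured in mouse brain 24 h after 1 dose into the nose of PAMAM dendrimers, branched polyamidoamine polymers studied as carriers of drugs and nucleic acids, at 0.15 mg/kg, or of saline. All animals were male BALB/c mice, an inbred strain, aged 8 weeks, with no other treatment named in the labels. The groups were the olfactory bulb, the hippocampus and the cerebral cortex after PAMAM, and the same regions after saline. Each of these 6 groups was hybridised to 1 array, with RNA pooled from 6 independent experiments, and whether the regions came from the same mice is not stated in the labels. Within a region, PAMAM was thus set against saline on a single pair of arrays, without replicates, and such a difference is given without a p-value. The number of arrays limits the precision of every value below.

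Proteins that fail to fold in the ER are sensed by 3 membrane proteins. ATF6 is cut to release a transcription factor, IRE1 (gene Ern1) splices the mRNA of the factor XBP1, and PERK (gene Eif2ak3) phosphorylates the translation factor eIF2α, which slows most translation but favours that of ATF4. ATF6 and XBP1 raise chaperones and degradation genes, while ATF4 raises genes of amino acid supply and the factor CHOP (gene Ddit3). Neurons and the secretory epithelium of the choroid plexus make large amounts of membrane and secreted protein and rely on this machinery.

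Levels are given as log2 signal relative to the 75th percentile of the array, and differences as log2 PAMAM minus saline. All 35 genes were well above background on all 6 arrays, and no spot was saturated. Between 34134 and 39057 of 59305 non-control spots per array were well above background. Spot noise alone gave a difference an SD of 0.08, which leaves out labelling, hybridisation and animals. This value comes from probes spotted 10 times and brighter than the median of those well above background. Their median SD between spots was 0.052 to 0.056 per array, against 0.066 to 0.069 over all such probes well above background. Marker genes went with the region labels: 8 of 8 olfactory bulb markers were highest in the bulb both with PAMAM and with saline, 8 and 7 of 8 hippocampal markers in the hippocampus, and 6 of 7 cortical markers in the cortex under both treatments. The hippocampal markers include Iyd, which was not well above background on either hippocampal array. They also include Wfs1, which is counted among the other regulators of the pathway below as well.

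The regulatory elements of these genes are shown first, because the comparison of the chaperones with the PERK/ATF4 targets rests on the factors that are known to bind them. RefSeq promoters (GRCm38.p6) were found for 31 of the 35 genes, and the 250 bases before the start were searched on both strands. The ER stress response element (ERSE, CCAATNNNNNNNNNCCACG), through which ATF6 and the factor NF-Y act, was found in 10 of the 31, against 0.113% of 32851 promoters. The elements are written along the strand that carries the motif, with its fixed letters in capitals.
Hspa5, ending 47 bases before the start: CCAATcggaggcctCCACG
Pdia6, ending 80 bases before the start: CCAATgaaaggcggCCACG
Creld2, ending 108 bases before the start: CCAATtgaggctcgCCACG
Calr, ending 144 bases before the start: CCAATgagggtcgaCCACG
Hsp90b1, ending 89 bases before the start: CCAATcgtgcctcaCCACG
Hsp90b1, ending 194 bases before the start: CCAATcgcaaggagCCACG
Dnajc3, ending 87 bases before the start: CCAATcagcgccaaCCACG
Canx, ending 127 bases before the start: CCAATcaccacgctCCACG
Ero1lb, ending 183 bases before the start: CCAATgaggcgggaCCACG
Syvn1, ending 26 bases before the start: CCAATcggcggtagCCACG
Derl3, ending 138 bases before the start: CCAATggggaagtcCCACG
The shorter ERSE-II (ATTGG, any base, then CCACG) was found in Herpud1 alone of the 31, against 0.0304% of all promoters.
Herpud1, ending 42 bases before the start: ATTGGgCCACG
The C/EBP-ATF response element (CARE, TGATGNAA), a site of ATF4, was found in 3 of the 31, against 3.45% of all promoters.
Asns, ending 16 bases before the start: TGATGaAA
Chac1, ending 186 bases before the start: TGATGcAA
Herpud1, ending 105 bases before the start: TGATGcAA
The unfolded protein response element UPRE (TGACGTGG), a site of XBP1 and ATF6, was in none of the 31 and in 0.563% of all promoters. None of the matches in the 31 promoters overlap. A match to these letters is a description of the sequence and not a mapped site, and the absence of a match says only that the letters are not in this window.

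Of the promoters, 4 are printed whole, without their transcribed bases and 5′ to 3′ on the gene's strand: those of Hspa5 and Creld2, which hold an ERSE and were higher with PAMAM in every region, that of Sdf2l1, which had the largest mean difference of the 35 genes and holds none of the searched motifs, and that of Canx, which holds an ERSE and differed little. The ERSE is in capitals, with its spacer, and in Creld2 it lies on the other strand.
Hspa5, chr2:34771840-34772089, plus strand: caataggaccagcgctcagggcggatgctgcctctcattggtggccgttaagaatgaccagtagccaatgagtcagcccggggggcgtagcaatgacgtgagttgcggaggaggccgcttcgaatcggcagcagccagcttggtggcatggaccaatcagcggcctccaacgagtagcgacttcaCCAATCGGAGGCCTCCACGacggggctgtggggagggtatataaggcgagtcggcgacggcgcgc
Creld2, chr15:88819396-88819645, plus strand: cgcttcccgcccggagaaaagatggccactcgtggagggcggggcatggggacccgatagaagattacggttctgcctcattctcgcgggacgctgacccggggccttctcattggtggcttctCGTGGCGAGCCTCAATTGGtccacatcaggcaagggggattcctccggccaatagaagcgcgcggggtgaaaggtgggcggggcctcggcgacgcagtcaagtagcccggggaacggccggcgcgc
Sdf2l1, chr16:17132384-17132633, minus strand: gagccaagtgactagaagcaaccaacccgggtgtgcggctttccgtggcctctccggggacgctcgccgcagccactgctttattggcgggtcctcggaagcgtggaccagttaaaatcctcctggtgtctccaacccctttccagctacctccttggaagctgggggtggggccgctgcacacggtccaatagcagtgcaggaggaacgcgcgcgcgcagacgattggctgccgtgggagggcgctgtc
Canx, chr11:50325674-50325923, minus strand: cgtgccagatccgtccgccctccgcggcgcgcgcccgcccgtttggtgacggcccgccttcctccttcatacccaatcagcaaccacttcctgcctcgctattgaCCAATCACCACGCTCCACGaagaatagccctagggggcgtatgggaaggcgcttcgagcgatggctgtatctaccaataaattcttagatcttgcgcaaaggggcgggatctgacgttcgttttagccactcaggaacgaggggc

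With PAMAM, the chaperones and folding enzymes were higher in all 3 regions, with a median log2 difference of 0.34 for the olfactory bulb (12 of 15 above 0), 0.38 in the hippocampus (13 of 15) and 0.37 in cortical tissue (13 of 15). The PERK/ATF4 targets had medians of -0.04, 0.01 and -0.01 in the same regions, with 1, 3 and 1 of 5 above 0. The ER degradation genes had 0.12, 0.21 and 0.06, with 6, 7 and 5 of 7 above 0. The median of all measured genes was -0.01, 0.00 and 0.02. The chaperone median exceeded that of the PERK/ATF4 targets by 0.38, 0.37 and 0.38 in bulb, hippocampus and cortex, and that of the degradation genes by 0.22, 0.17 and 0.31. In bulk tissue, more cells of a type and more RNA per cell cannot be told apart.

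**Figure D1:**
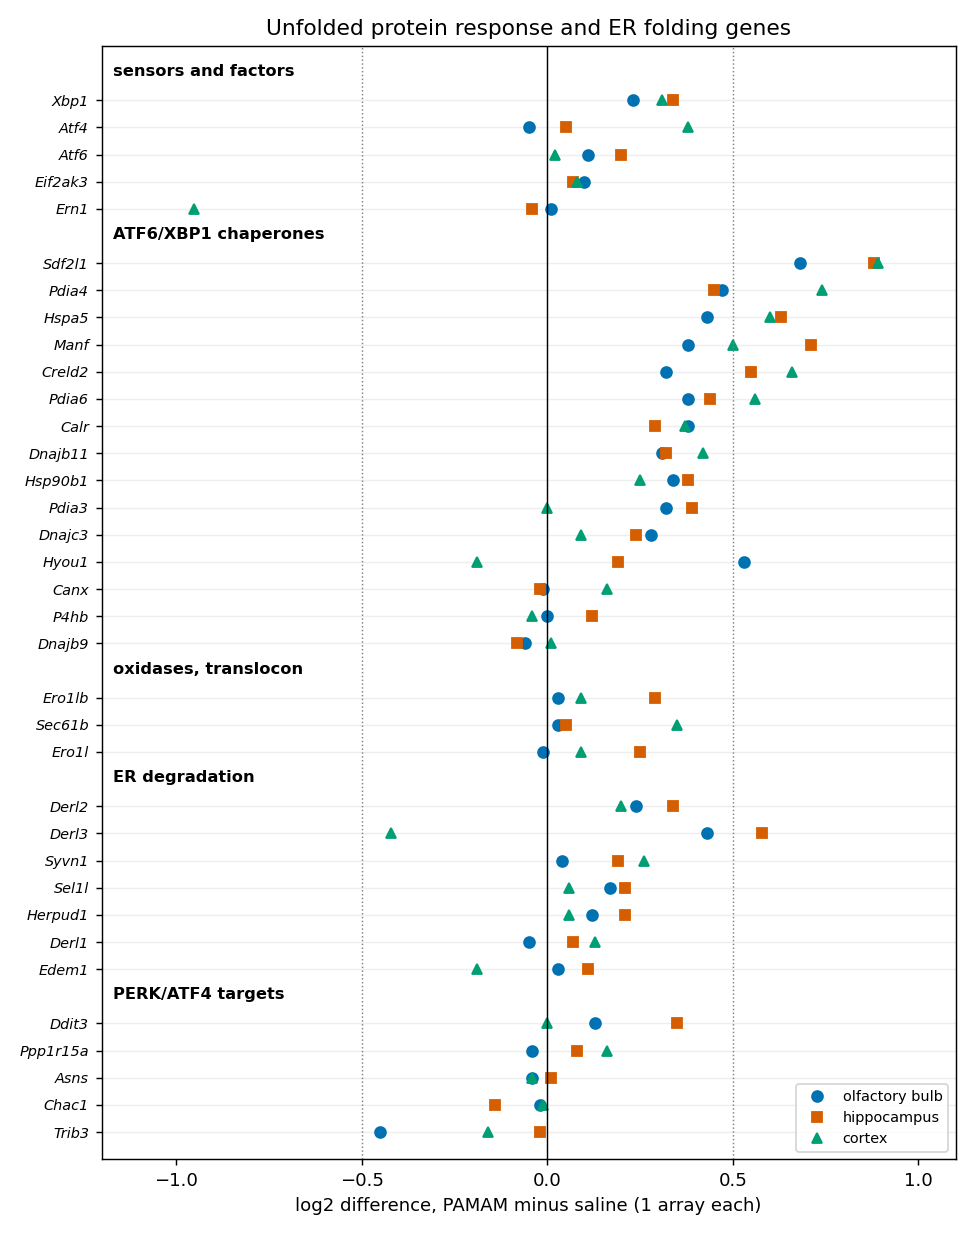
Log2 difference, PAMAM minus saline, of each of the 35 genes by role, with 1 point for each region (circle, olfactory bulb; square, hippocampus; triangle, cortex; 1 array for each treatment). The dotted lines mark 0.5 either way. Most chaperones lie right of 0 in every region, led by Sdf2l1 at 0.68, 0.88 and 0.89, while the PERK/ATF4 targets Asns and Chac1 lie at or left of 0.01, and Ern1 lies at -0.95 in the cortex.

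Sdf2l1, an ER protein that works with the BiP co-chaperone Dnajb11, had levels of 0.11, 0.69 and 0.80 in the bulb, hippocampus and cortex with PAMAM, against -0.57, -0.19 and -0.09 with saline. Its 3 PAMAM arrays lay above its 3 saline arrays, with differences of 0.68, 0.88 and 0.89, or 1.6-, 1.83- and 1.85-fold. It was the only one of the 35 genes that reached 0.5 in every region, as did 7 genes (0.0334%) of the 20979 measured in all 3. Its probe (transcript NM_022324) lies at chr16:17130426-17130485 (mm9, minus strand).

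Hspa5 encodes BiP, the ER Hsp70 that binds unfolded chains and holds the 3 sensors inactive. Its levels were 5.31, 5.59 and 5.57 with PAMAM in the bulb, hippocampus and cortex, against 4.88, 4.96 and 4.97 with saline. The PAMAM arrays again lay above all saline arrays, by 0.43, 0.63 and 0.60, or 1.35-, 1.55- and 1.52-fold. The probe (NM_022310) lies at chr2:34631913-34631972 (mm9, plus strand).

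Manf encodes a small ER protein that is also secreted and acts as a neurotrophic factor. It stood at 1.70, 2.07 and 1.92 with PAMAM, against 1.31, 1.36 and 1.42 with saline, again without overlap, so that it was higher by 0.38, 0.71 and 0.50. Creld2, an ER-stress-inducible ER protein with EGF-like domains, was at 3.62, 3.79 and 3.85 with PAMAM, against 3.31, 3.24 and 3.19 with saline. Its probe alone of the 35 is spotted 10 times, and the differences of 0.31, 0.55 and 0.66 had standard errors of 0.016, 0.023 and 0.018 from these spots, which cover spot noise only.

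The protein disulfide isomerases, which form and rearrange disulfide bonds, differed among themselves. Pdia4 was at 0.07, 0.25 and 0.33 with PAMAM, against -0.39, -0.20 and -0.42 with saline, higher by 0.47, 0.45 and 0.74 and without overlap. Pdia6 was at 4.64, 5.13 and 5.26 with PAMAM, against 4.26, 4.69 and 4.70 with saline, and was higher by 0.38, 0.44 and 0.56. Its groups overlapped, as the bulb array with PAMAM lay below the saline arrays of the hippocampus and cortex. A second probe of Pdia6 gave 0.29, 0.36 and 0.46. Pdia3, which joins calnexin and calreticulin in folding glycoproteins, differed by 0.32, 0.39 and 0.00, and P4hb, the founding member of the family, by 0.00, 0.12 and -0.04.

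The lectin chaperones also split. Calr (calreticulin) was higher by 0.38, 0.29 and 0.37 with PAMAM arrays above all saline arrays, while Canx (calnexin) differed by -0.01, -0.02 and 0.16. Hsp90b1, the ER Hsp90 known as GRP94, was higher by 0.34, 0.38 and 0.25. The J-domain proteins that hand substrates to BiP had 0.31, 0.32 and 0.42 (Dnajb11), 0.28, 0.24 and 0.09 (Dnajc3, which also inhibits PERK) and -0.06, -0.08 and 0.01 (Dnajb9, which is known to repress IRE1). A second probe of Dnajb9 gave 0.00, 0.15 and -0.29, and that of Dnajb11 was not well above background on any array.

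Hyou1, an exchange factor for BiP, had opposite signs between regions. It was at -2.17, -2.17 and -2.48 with PAMAM, against -2.71, -2.37 and -2.30 with saline. The bulb differed by 0.53, the hippocampus by 0.19 and the cortex by -0.19, and the groups overlapped through the cortex, where the PAMAM array was below the saline arrays of the hippocampus and cortex. With normexp background the cortex difference was -0.04.

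**Figure D2:**
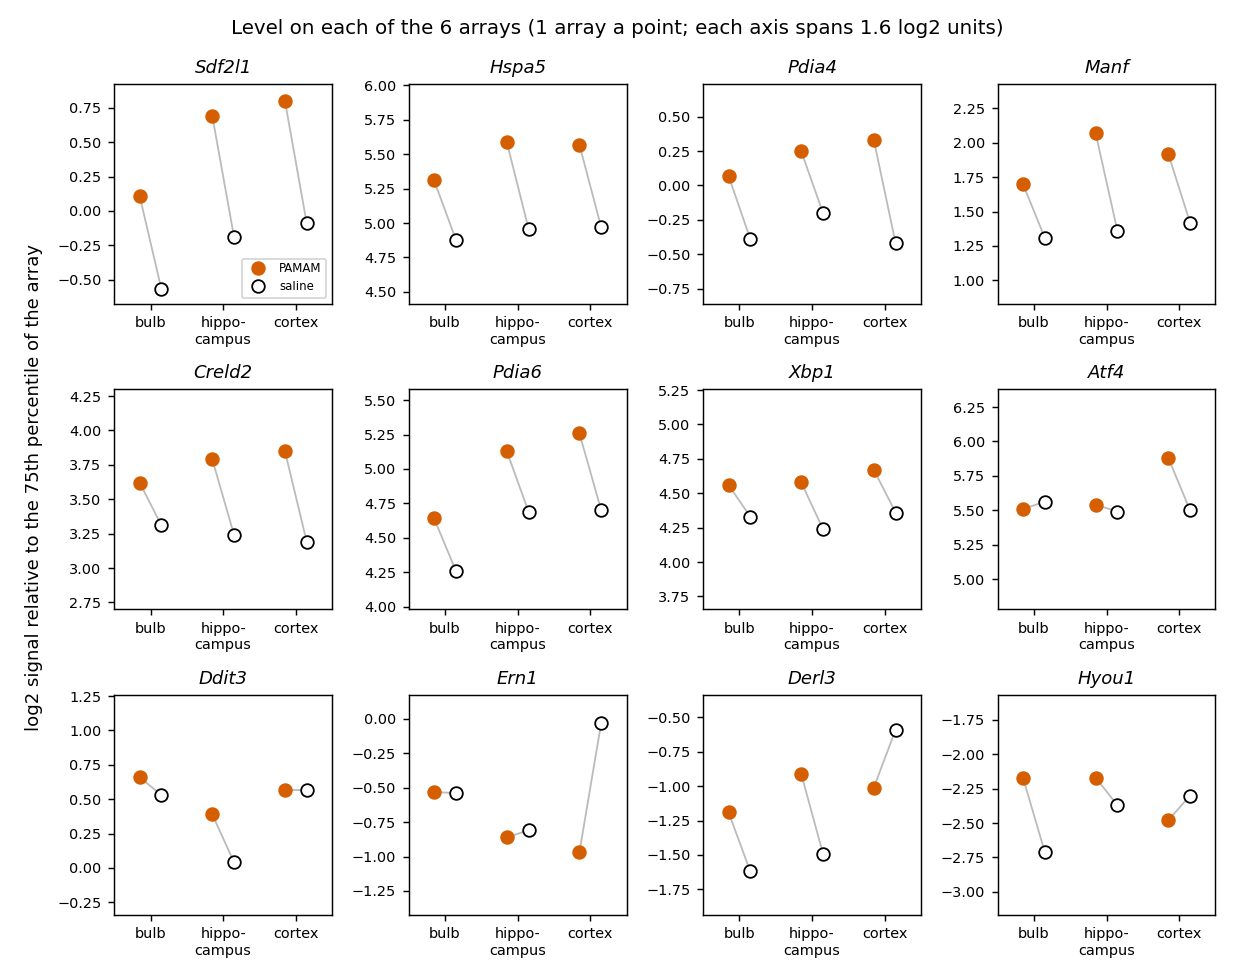
Level of 12 genes on each of the 6 arrays, as log2 signal relative to the array's 75th percentile, with PAMAM (filled) left of saline (open) in each region and a line joining the pair; each axis spans 1.6 log2 units. In Sdf2l1, Hspa5, Pdia4, Manf, Creld2 and Xbp1 every PAMAM array lies above every saline array, whereas Pdia6, Atf4, Ddit3, Derl3 and Hyou1 overlap and Ern1 is lowest in the cortex with PAMAM at -0.97.

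Among the sensors and factors, Xbp1 was the one whose groups did not overlap. It stood at 4.56, 4.58 and 4.67 with PAMAM, against 4.33, 4.24 and 4.36 with saline, and was higher by 0.23, 0.34 and 0.31. The array files do not say whether its probe separates the spliced from the unspliced mRNA, which is the step that IRE1 controls. Atf6 was at -0.96, -0.34 and -0.10 with PAMAM, against -1.07, -0.55 and -0.11 with saline, with differences of 0.11, 0.20 and 0.02. Its PAMAM and saline arrays overlapped, and its levels differed more between regions than between treatments.

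Eif2ak3 (PERK) was at 0.82, 0.66 and 0.85 with PAMAM, against 0.73, 0.59 and 0.77 with saline, so that its differences of 0.10, 0.07 and 0.08 were about the size of the spot noise. Atf4 was at 5.51, 5.54 and 5.88 with PAMAM, against 5.56, 5.49 and 5.50 with saline. Its difference was -0.05 and 0.05 in the bulb and hippocampus, where its other probe gave 0.12 and 0.20. It was 0.38 in the cortex, where the other probe gave -0.15. The probes of Atf4 thus differed in sign in the bulb and in the cortex.

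Ern1 (IRE1) was the only one of the 35 genes at -0.5 or less in any region. It was at -0.53, -0.86 and -0.97 with PAMAM, against -0.54, -0.81 and -0.03 with saline, so that the cortex saline array stood above the other 5 and the difference was 0.01, -0.04 and -0.95. Of its 3 other probes, 1 was well above background on all arrays and gave 0.20, 0.14 and -0.36. Another was well above background on the cortex saline array alone, and the remaining one on none.

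The PERK/ATF4 targets showed no common direction. Ddit3 (CHOP), a factor linked to cell death in prolonged ER stress, was at 0.66, 0.39 and 0.57 with PAMAM, against 0.53, 0.04 and 0.57 with saline, so that the largest difference was 0.35 in the hippocampus, against 0.13 in the bulb and 0.00 in the cortex. Its groups overlapped. Trib3, a pseudokinase that binds AKT, differed by -0.45, -0.02 and -0.16, and Chac1, an enzyme that degrades glutathione, by -0.02, -0.14 and -0.01. These were the 2 of the 35 genes that were lower with PAMAM in all 3 regions, as 14.2% of 20979 genes were. Trib3 is dim, at -1.93 or below on every array, and with normexp background it differed by 0.10 in the hippocampus and 0.00 in the cortex and was no longer lower in all 3. Asns, asparagine synthetase, differed by -0.04, 0.01 and -0.04, and Ppp1r15a, the eIF2α phosphatase subunit GADD34, by -0.04, 0.08 and 0.16. None of the 5 was higher in all 3 regions, as 15.3% of 20979 genes were, and for 5 genes a count of 0 is near that share.

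Of the 7 degradation genes, 4 were higher in all 3 regions, against 15.3% of all genes. The differences were 0.24, 0.34 and 0.20 for Derl2, 0.17, 0.21 and 0.06 for Sel1l, 0.12, 0.21 and 0.06 for Herpud1 and 0.04, 0.19 and 0.26 for Syvn1. Syvn1 is the ubiquitin ligase HRD1, Sel1l its adaptor and Herpud1 a partner of the complex, while the derlins help to move chains out of the ER. Other probes of Derl2 gave between 0.09 and 0.29. Derl1 differed by -0.05, 0.07 and 0.13 and by 0.22, 0.15 and 0.21 on its other probe, and Edem1, a lectin that picks glycoproteins for degradation, by 0.03, 0.11 and -0.19.

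Derl3 also had opposite signs between regions. It was at -1.19, -0.91 and -1.01 with PAMAM, against -1.62, -1.49 and -0.59 with saline. The cortex saline array was the highest of the 6, and the differences were 0.43 and 0.58 in the bulb and hippocampus, against -0.42 in the cortex. Of the oxidation and translocation genes, the oxidases that recharge protein disulfide isomerase, Ero1l (now Ero1a) and Ero1lb (now Ero1b) differed by -0.01, 0.25 and 0.09 and by 0.03, 0.29 and 0.09. Sec61b, a subunit of the translocation channel, differed by 0.03, 0.05 and 0.35, and its other probes by -0.13 to 0.21.

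Counted within a region, 2 of the 35 genes were higher by at least 0.5 in the bulb (Sdf2l1 and Hyou1), where 1.02% of 23150 measured genes were. In the hippocampus 5 were (Sdf2l1, Manf, Hspa5, Derl3 and Creld2), against 3.31% of 22200 genes, and in the cortex 6 (Sdf2l1, Pdia4, Creld2, Hspa5, Pdia6 and Manf), against 2.74% of 21480. At -0.5 or less there was none in the bulb (2.15% of all genes) or the hippocampus (1.29%) and 1, Ern1, in the cortex (4.15%). None of the 35 reached a 2-fold difference in any region, while 0.0518%, 0.586% and 0.349% of all genes did so upward in bulb, hippocampus and cortex, and 0.207%, 0.0676% and 0.419% downward. Of all 35, 25 were above 0 in the bulb (47.2% of all genes), 30 for the hippocampus (51.2%) and 26 for the cortex (53.5%).

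The 35 genes are brighter than most, so they were also set against brighter genes alone, those above the median of probes well above background. Of the 30 members that were brighter in the bulb, 22 were above 0 (48.1% of brighter genes) and 1 was at 0.5 or more (0.112%). In the hippocampus 27 of 30 were above 0 (49.7%) and 4 at 0.5 or more (0.756%). In the cortex 25 of 30 were above 0, where 62.2% of all brighter genes were, and 6 were at 0.5 or more (1.15%).

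Across regions, 20 of the 35 genes were higher with PAMAM in all 3, against 15.3% of 20979 genes and 17.9% of brighter genes, and 11 of these 20 were chaperones, counting Pdia3, whose difference in the cortex rounds to 0.00. The 3 PAMAM arrays all lay above the 3 saline arrays for 11 of the 35, 8 of them chaperones, against 1.42% of all genes. The 35 genes were chosen with earlier results of these data known, so such shares are not a test. The 10 genes with an ERSE had median differences of 0.33, 0.34 and 0.26 and were higher in all regions in 8 cases, Canx and Derl3 being the others. The 21 genes with a promoter but no ERSE had 0.03, 0.12 and 0.06, and 10 of them were higher in all regions. Of the 10 with an ERSE 7 are chaperones, against 6 of the 21 without, so the element and the role overlap in part. By mean difference, the 6 chaperones without it ran from Sdf2l1 (0.68, 0.88 and 0.89) to Dnajb9 (-0.06, -0.08 and 0.01). Those with it outside the chaperones were Ero1lb (0.03, 0.29 and 0.09), Syvn1 (0.04, 0.19 and 0.26) and Derl3 (0.43, 0.58 and -0.42). The part of the element and of the role in these differences was not tested.

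The 35 differences went together most closely between the bulb and the hippocampus. Pearson's r over the 35 genes was 0.82 there (Spearman's rho 0.85), 0.47 (0.41) between the bulb and the cortex and 0.57 (0.52) between the hippocampus and the cortex. Over all genes measured in both regions r was 0.09, 0.04 and 0.08. The pairs of regions share no array, but genes are not independent replicates, and the values are descriptions only.

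**Figure D3:**
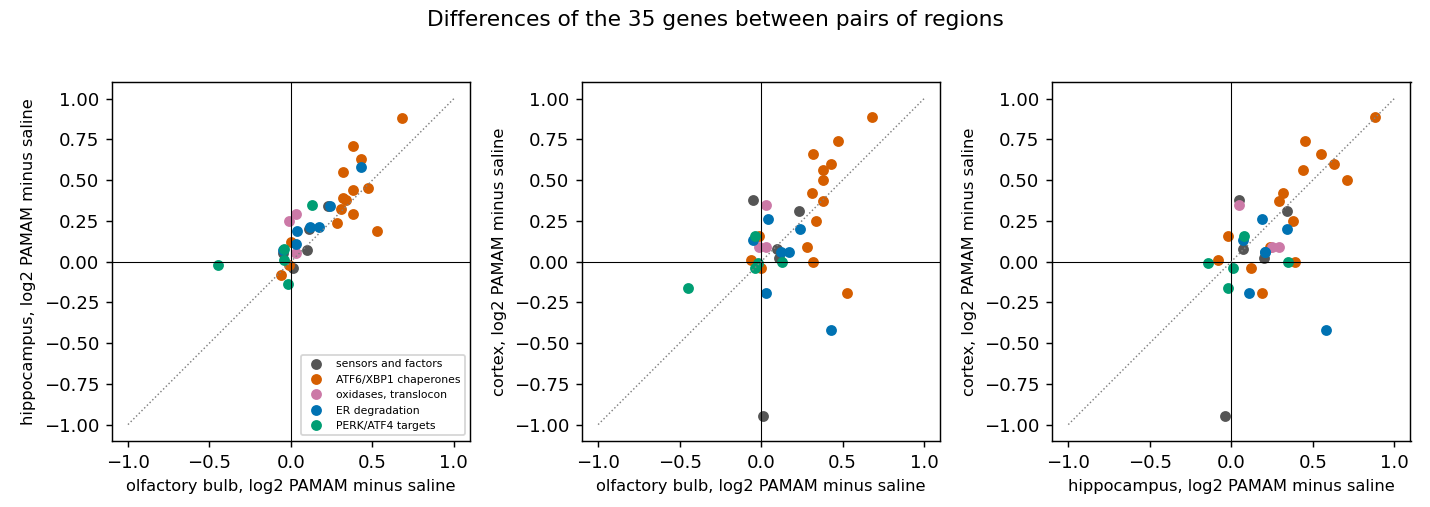
Log2 difference, PAMAM minus saline, of the 35 genes in 1 region against another, coloured by role, with the dotted line of equal differences; each point is 1 gene, from 1 array for each treatment in each region. Most chaperones lie in the upper right of all 3 panels, and Ern1 (-0.95) and Derl3 (-0.42) stand lowest on the cortex axis.

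A fit over all 6 arrays asked whether a treatment difference was larger than its spread over regions (limma, additive in region and treatment, 23201 genes, 2 residual degrees of freedom). With pooled RNA its p-values measure the spread between regions, not between mice. At an adjusted p below 0.05 it called 0 of 23201 genes (0%) and 0 of the 35. At an unadjusted p below 0.05 limma gave 1556 genes, 759 higher (3.27%) and 797 lower (3.44%), of which 16 of the 35 were higher and 0 lower. Those 16 were 11 chaperones, 4 degradation genes and Xbp1. As the 35 were chosen with earlier results of these data known, this count is a description only.

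Of the 35 genes, 3 stood among the 10 genes with the lowest p-values. Sdf2l1 was at rank 2 of 23201, with a difference of 0.81 (SE 0.07, limma adjusted p = 0.113, higher in 3 of 3 regions). Hspa5 was at rank 3 with 0.55 (SE 0.06, limma adjusted p = 0.177) and Pdia6 at rank 4 with 0.46 (SE 0.05, limma adjusted p = 0.278). In all, 10 of the 35 stood among the first 100 genes and 14 among the first 1000. Xbp1, at 0.29 (SE 0.05), had a limma adjusted p of 0.37. With no filter on dim probes limma called 3 of 34788 genes. Hspa5 and Sdf2l1 were 2 of these, with a lowest limma adjusted p of 0.0153. No other processing alternative and no fit without 1 region called any of the 35, and their lowest limma adjusted p then ranged between 0.0686 and 0.902.

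The wider pathway was read from lists that leave out the 35 genes, with counts at an unadjusted limma p below 0.05 to be set against the 3.27% of all genes that were higher and the 3.44% that were lower at that p. Other ER folding genes had medians of 0.02, 0.02 and 0.11, and 2 of 21 passed, both higher. The highest of them by mean difference were Txndc11 (0.17, 0.09 and 0.24), the glucosidase II subunit Prkcsh (0.15, -0.04 and 0.38) and the folding sensor of glycoproteins Uggt1 (0.04, 0.25 and 0.20), and the lowest was Uggt2 (0.09, -0.27 and -0.36). Other degradation genes had medians of 0.00, 0.01 and 0.09 with 1 of 18 higher at that p, and were led by the E2 enzyme Ube2g2 (0.04, 0.24 and 0.16). Genes of translocation, signal peptidase and glycosylation had 0.09, 0.02 and 0.10 with 3 of 24 higher, led by Stt3b, a catalytic subunit of oligosaccharyltransferase (0.18, 0.26 and 0.32).

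Other PERK/ATF4 genes had medians of -0.06, -0.01 and 0.07, with 1 of 28 higher and 2 lower at that p, near the shares of all genes. The cystine transporter Slc7a11 was the highest (-0.04, 0.46 and 0.29), and the amino acid transporter Slc7a5 (0.05, -0.08 and -0.51) and the mTORC1 inhibitor Ddit4 (-0.16, -0.19 and -0.12) were the lowest. Other regulators had -0.01, 0.02 and 0.07, with 1 of 20 higher and 1 lower, and ran from Creb3l1 (-0.23, 0.17 and 0.77) to Mbtps2, a protease that cuts ATF6 (-0.23, -0.12 and -0.51). None of these lists reached the chaperone medians in any region.

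Heat shock genes of the cytosol and mitochondria, which answer to another factor, HSF1, were higher too. Their medians were 0.15, 0.21 and 0.26, and 12, 13 and 12 of 13 were higher with PAMAM, with 10 of 13 at an unadjusted limma p below 0.05. Hspb1 was at 2.68, 2.94 and 3.27 with PAMAM, against 2.27, 2.04 and 2.13 with saline, a difference of 0.41, 0.90 and 1.14. Hsph1 was higher by 0.31, 0.38 and 0.34.

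Markers of neighbouring tissue differed between treatments in some regions. Choroid plexus markers were higher with PAMAM for 12 of 12 in the hippocampus (median 0.77, summed level 280.39 with PAMAM and 173.2 with saline, relative to the 75th percentile) and 8 of 9 in the cortex (1.22, 24.46 and 5.24). Meningeal and fibroblast markers were higher for 12 of 12 in the cortex (0.72, 28.08 and 15.7), with medians of -0.04 in the bulb and 0.00 in the hippocampus. Red cell markers were higher for 6 of 6 in the hippocampus (0.53, 190.79 and 141.48) and 5 of 5 in the cortex (0.63, 219.48 and 141.73). Hippocampal neuron markers were lower with PAMAM in the hippocampus for 7 of 7 (median -0.24, summed level 54.25 and 65.37) and higher in the cortex for 4 of 5 (0.52), where microglial markers were higher for 8 of 8 (0.16). Cortical neuron markers were higher in the hippocampus for 6 of 7 (0.19, up to 0.80), and olfactory bulb neuron markers were lower in the cortex for 5 of 6 (-0.59).

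In the bulb, markers of these tissues differed in both directions. Choroid plexus markers were higher for 4 of 9 there, with a median of -0.06, a range of -0.54 to 0.47 and a summed level of 6.4 with PAMAM and 6.61 with saline, and Sostdc1 and Kcne2 were not well above background on either array. Red cell markers had a median of 0.07 (-0.28 to 0.12), endothelial markers -0.03 (-0.13 to 0.16) and microglial markers 0.08 (-0.09 to 0.16). Of the 7 markers of B and plasma cells, which are rich in ER chaperones, 2 were measured in each region, and 4 or 5 were not well above background on either array. Igj differed by -0.72, 0.34 and 0.14 and Cd79a by -0.19, 0.52 and -0.31 in the bulb, hippocampus and cortex. The part of these tissues and cells in the differences of any region was not tested.

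The hippocampal PAMAM and saline arrays lay in different rows of the slide, and those of the other regions in 1 row each. In the fit without the hippocampus, 11 of the 35 genes and 4.42% of all genes had an unadjusted limma p below 0.05, and none of the 35 had an adjusted p below 0.05. The part of the slide row in the result was not tested.

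Regional levels of the same genes were compared with the same fit, over both treatments. Each region has only its PAMAM and its saline array of pooled RNA, so these p-values do not measure the spread between mice or dissections. Between the bulb and the hippocampus 10 of the 35 differed at a limma adjusted p below 0.05, 2 higher and 8 lower in the bulb, which is 28.6% of the 35 against 45.9% of all genes. Between the bulb and the cortex 12 differed, 1 higher and 11 lower in the bulb, or 34.3% against 48.8%. Between the hippocampus and the cortex 4 differed, 1 higher and 3 lower in the hippocampus, or 11.4% against 15.8%. All 3 shares were below that of all genes. The split by direction was not counted over all genes, and the calls changed with the scaling. Under quantile normalization 14 of the 35 and 10769 of 23201 genes differed between bulb and cortex. Calr, Syvn1 and Dnajb11 were no longer called there, at 0.07, -0.08 and 0.00, while Derl1, Derl3, Hsp90b1, Sec61b and Xbp1 were. Under all 6 other processing settings the fit also called 5 of the 10 (Asns, Atf6, Pdia6, Sdf2l1 and Sel1l), 7 of the 12 (these 5 with Chac1 and Herpud1) and 1 of the 4 (Trib3).

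Asns, the gene of asparagine supply, differed most. It was at 3.65 and 3.69 in the bulb with PAMAM and saline, against 4.63 on both hippocampal arrays and 4.78 and 4.82 on those of the cortex. Its difference, bulb minus hippocampus, was -0.96 (SE 0.06, limma adjusted p = 2.1e-05) and, bulb minus cortex, -1.13 (SE 0.06, limma adjusted p = 8.9e-06). Atf6 was lower in the bulb too, with differences of -0.57 from the hippocampus (limma adjusted p = 0.00235) and -0.91 from the cortex (limma adjusted p = 0.000236).

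The chaperones Sdf2l1 and Pdia6 and the degradation gene Sel1l were lower in the bulb as well. Sdf2l1 differed from the hippocampus by -0.48 and from the cortex by -0.58, Pdia6 by -0.46 and -0.53, and Sel1l by -0.53 and -0.40. Under quantile normalization Pdia6 differed by -0.26 and -0.23. Chac1 was lower in the bulb than in the cortex, with a difference of -0.58 (-0.58 on the PAMAM arrays alone and -0.57 on the saline arrays alone), and Herpud1 with -0.47 (limma adjusted p = 0.00102), or -0.25 under quantile normalization. Trib3 was lower in the hippocampus than in the cortex, with a difference of -1.08 (SE 0.17, limma adjusted p = 0.00585), with -1.01 on the PAMAM arrays, -1.15 on the saline arrays and -0.65 with normexp background.

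**Figure D4:**
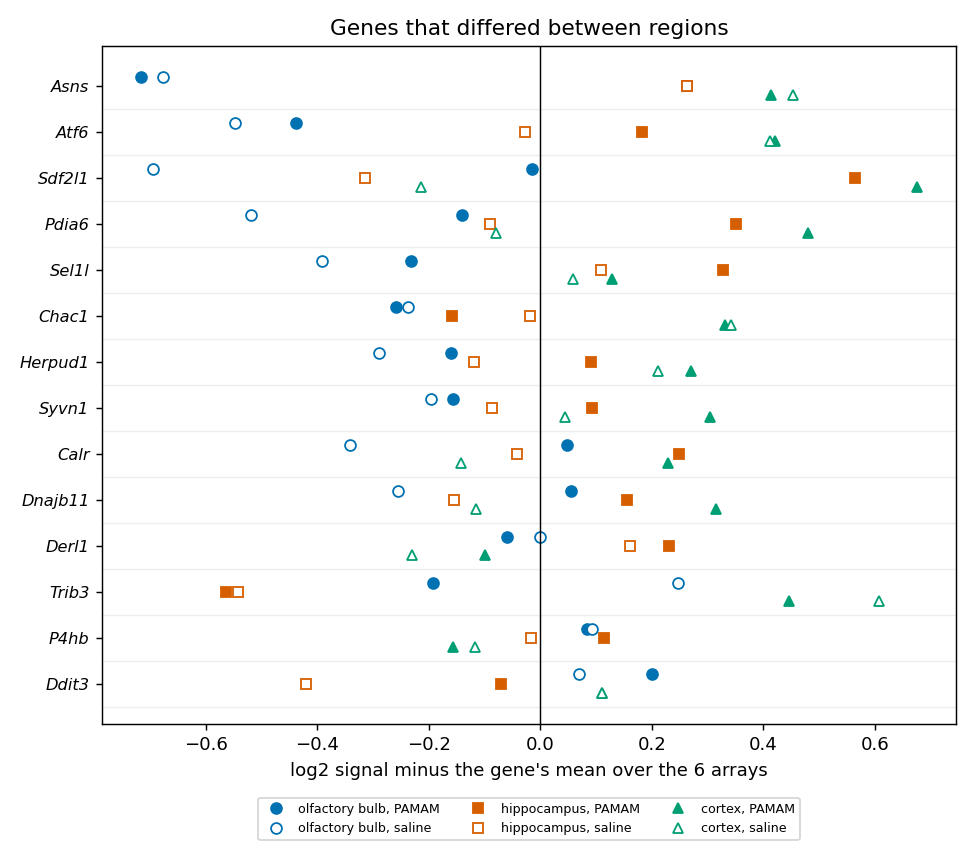
Log2 signal minus the gene's mean over the 6 arrays for the 14 genes called between any pair of regions, with PAMAM arrays filled and saline arrays open (circle, olfactory bulb; square, hippocampus; triangle, cortex). Both bulb arrays of Asns and Atf6 lie left of the other 4, and both hippocampal arrays of Trib3 lie left of the rest.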

How the data were processed

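RNA of 6 pools (3 brain regions, PAMAM or saline, 1 array each) was measured on 1 slide scanned on 1 day. In the deposited scanner files each spot has a linear intensity, from which the authors had removed background with Agilent Feature Extraction 10.7.3.1 (scanner G2505C, array design 028005, build mm9), per the file headers. The authors' deposited table of log2 values has scale, centring and direction that no label gives. Set against the scanner signals it equals log2 values scaled to the 75th percentile and centred on each probe's median (r 0.9999 to 1 over 29553 probes), and how repeated spots were treated remains unknown. The medians of its columns are -0.0617 and -0.0906 (olfactory bulb, PAMAM and saline), 0.0252 and -0.0459 (hippocampus) and 0.0347 and 0.0432 (cortex).

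For the values given here, log2 of the processed signal was taken, the 75th percentile of an array's non-control spots subtracted (452.0 to 709.6 before the log), outlier spots dropped and spots of a probe averaged. A gene is represented by its brightest probe over the 6 arrays, counts as measured where both arrays of a region had that probe well above background, and as higher or lower at 0.5. The fit over regions used limma 3.58.1 in R 4.3.3 (additive in region and treatment, trended eBayes with 5.03 prior degrees of freedom, Benjamini-Hochberg adjustment) on genes well above background on at least 3 arrays. Tried on simulated data, it missed most of the treatment changes put in, so a gene not called for treatment may still differ. Tables and figures used Python 3.11.15, numpy 2.4.6, pandas 2.3.3 and matplotlib 3.10.9. Groups came from the labels.

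All 35 genes are described. Named with every array were Hspa5, Xbp1, Atf4, Atf6, Ddit3, Ern1, Eif2ak3 and genes reaching 0.5 in any region, and of each wider list some of the 3 highest and 3 lowest by mean difference. The genes, their roles, the wider lists and the marker lists were chosen with earlier results of these data known. The arrays' gene names were kept. Alternatives were normexp background (offset 50), quantile normalization, the authors' table, the median of all probes, other filters, a 2-fold limit and leaving out each region. The exon or UTR position of the probes was not used here.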

Additional observations from a re-analysis of the deposited data

Results flagged for a closer look

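Hyou1, the exchange factor of BiP, was higher with PAMAM in the olfactory bulb by 0.53 and lower in the cortex, at -0.19, each from 1 array for each treatment. The sign was opposite in the 2 regions, and the difference between them was not tested. With normexp background Hyou1 differed by 0.33 in the bulb and by only -0.04 in the cortex. Under quantile normalization it differed by 0.56 and -0.09.

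Derl3, a derlin of ER-associated degradation, was higher with PAMAM in the hippocampus by 0.58 and differed by -0.42 in the cortex. Its sign was likewise opposite between regions, and this difference was not tested. Both genes are dim, with levels below the 75th percentile on all 6 arrays.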

How the results depend on the processing

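Arrays could not be paired by animal, because each group holds 1 array of pooled RNA and the labels give no replicate numbers. The fit pairs PAMAM with saline by region, which stands as the block. With normexp background, 1 gene was higher by at least 0.5 in the olfactory bulb (Hyou1 no longer) and the chaperone median exceeded that of the PERK/ATF4 targets by 0.29 in the hippocampus. Among brighter genes only, the bulb count was 1 and no gene was lower in the cortex (0). At a 2-fold limit the counts of higher genes were 0 in all 3 regions, and 0 were lower in the cortex. With no filter on dim probes limma called 2 of the 35 for treatment, among 3 of 34788 genes. When each region was left out in turn it called 0 to 0 of the 35. With the authors' table limma called 6 of the 35 between bulb and hippocampus and 1 between hippocampus and cortex. Calls over all 23201 genes fell too, from 10651 to 8891 and from 3659 to 1862. Under quantile normalization the difference between bulb and cortex turned to 0.07 for Calr and 0.00 for Dnajb11. The cause of these shifts was not tested, except that a higher limit or fewer genes must lower a count. Manf fell below 0.5 in the cortex with normexp background, and Manf and Pdia6 with quantile normalization. Over the alternatives, 385 of 420 differences of the 35 genes within a region moved by no more than the spot noise of brighter probes and 35 by more. Of these 420, 13 turned sign at 2 decimals, none of them over 0.08 in size as first given. A value that reached 0.00 was not counted, such as Trib3 in the cortex, from -0.16 to 0.00 with normexp background. Of 156 regional differences tested again, 129 kept their direction and their call, 25 kept their direction but no longer passed, and 52 more from the arrays of 1 treatment carry no test. Of 315 treatment differences of the fit, 313 stayed on their side of the threshold and 2 passed with no filter, while 3 turned sign, all 0.04 or less as first given. The number of genes higher in all 3 regions was 19 to 21 under 4 alternatives chosen after seeing the data. The median of all measured genes within a region lay between -0.02 and 0.04 under the main setting and the alternative values. With 1 pooled array in each group, variation between mice is not measured.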

Other observations

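Among the 10 genes with the lowest limma p-values for treatment, 6 other named genes stood beside Sdf2l1, Hspa5 and Pdia6. P4ha1, a subunit of the collagen prolyl hydroxylase that shares the PDI subunit P4hb, was higher by 0.49 (limma adjusted p = 0.3), the transcription factor Etv5 by 0.41 and Dio2, which makes active thyroid hormone, by 0.56 (limma adjusted p = 0.278 for both). Isoc2b was higher by 1.02. Cirbp, an RNA-binding protein induced by cold, was at -0.38, and Klhdc9 at -0.63, both with a limma adjusted p of 0.278. None passed the threshold.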
